A study of Mus musculus with 18 samples.

Results

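Bone marrow of 2 mouse genotypes that had not been transplanted was compared by 3′ mRNA sequencing, and every gene of that comparison is described here. The comparison held 8 of the 18 libraries of the series, 4 from Cgas-/- marrow and 4 from dKO marrow, and it listed 14423 of the 22401 genes listed for either tissue. Members were taken from the table of the marrow comparison as it stands, with no further choice by value. The smallest mean normalized count over the 8 libraries in that table was 6.46, and the gene filter used for it is not given. All mice were C57BL/6. Cgas-/- mice lack cGAS and carry TREX1 and STING, while dKO mice lack TREX1 and carry the goldenticket allele, Sting1gt/gt, which leaves no functional STING, so that both genotypes have a broken cGAS to STING pathway and there was no intact control. Age and sex are not given in the labels, and nothing there ties each library to its own mouse, so the p-values rest on the spread between samples, and that spread may be technical. No Cre or cell-type promoter is named for either genotype, and marrow was handled as a suspension of cells, so the libraries hold its cell types together. The 10 other libraries were of spleen from lethally irradiated dKO mice, 12 weeks after transplantation of Cgas-/- or dKO marrow (5 each), and are used only for a comparison at the end.

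cGAS binds DNA in the cytosol and makes cGAMP, a small messenger that binds STING, and STING then drives the transcription of type I interferon through TBK1 and IRF3. Secreted interferon acts through its receptor and transcription factors that bind interferon-stimulated response elements and switch on a set of antiviral genes. TREX1 degrades cytosolic DNA, and its loss leaves a substrate that cGAS can sense. Marrow makes red cells, granulocytes, monocytes, platelets and B cells from shared progenitors, and granulocyte and erythroid precursors make up much of it.

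All values are those of the authors' deposited table of DESeq2 results, and fold changes are Cgas-/- relative to dKO marrow. Each gene has a mean normalized count over the 8 libraries, a log2 fold change with its standard error (given after ±) and a p-value adjusted over the table. Values of single libraries were not used here, so library depth is unknown and neither the spread within a group nor its overlap with the other group can be shown. Where a level per genotype is given, it was computed from the deposited mean and fold change with 4 libraries in each group. The median standard error was 0.614 for genes with a mean below 20, 0.153 for means from 100 to 500 and 0.0793 for means of 2000 or more. The non-coding transcript AY036118 held 13.9% of the summed means, with a log2 fold change of 0.30 ± 0.25 in the authors' deposited table. Genes of marrow cells were found at widely different levels, with means of 406050.0 for S100a8 (neutrophils), 2148 for Elane (promyelocytes), 8736 for Hbb-bs (erythroid cells) and 195 for Vpreb1 (B cell precursors) in the authors' deposited table. Xist, the non-coding RNA of the inactive X chromosome in female cells, had a mean of 3563 and a log2 fold change of -0.10 ± 1.65 in the authors' deposited table. That standard error is far above the others at such a level, and whether the groups were balanced for sex was not tested.

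The genes that define the genotypes were read first. Cgas had levels of 147 against 322 normalized counts in Cgas-/- and dKO marrow, a log2 fold change of -1.13 ± 0.155 (DESeq2 adjusted p = 6.99e-10, authors' deposited table). Trex1 had 276 against 101, a log2 fold change of 1.45 ± 0.178 (DESeq2 adjusted p = 7.93e-13, authors' deposited table). Both labels were met by the direction of their gene, although tags from the 3′ end outside a deleted part can still be counted, so a residual level does not measure the deletion. Sting1, listed as Tmem173, had 191 against 208 and did not pass the test (log2 fold change -0.13 ± 0.176, DESeq2 adjusted p = 0.937, authors' deposited table), and since goldenticket is a point mutation this level checks nothing. Trex1 overlaps Atrip on the same strand, and Atrip was at -0.40 ± 0.156 in the authors' deposited table. Of the 27 measured genes of DNA sensing and of the handling of self nucleic acid and cGAMP, Cgas and Trex1 were the 2 calls. The 6 measured genes of the route from cGAS to IRF3 were all below 0, with a median of -0.15 against -0.0023 over all genes. Cgas is 1 of the 6, and its direction was set by the genotype. It was also the 1 gene of the 6 with a p under 0.05 before adjustment. The 9 genes of cGAMP transport and hydrolysis had a median of 0.03.

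Few genes separated the genotypes, and most of those that did were lower in Cgas-/- marrow. At a DESeq2 adjusted p under 0.05, 77 genes were called (0.534% of the table), of which 25 were higher (0.173%) and 52 lower (0.361%). Over all genes 50.5% had a log2 fold change below 0. Before adjustment, 605 genes on the higher side (4.19%) and 671 on the lower side (4.65%) had a p under 0.05. Of the 77 calls, 29 had an absolute log2 fold change of 1 or more, 63 were protein coding, and 29 belonged to one of the 35 gene lists used below. What could be called depended on the level: the smallest called difference was 0.46 for means from 100 to 500 and -0.26 for means of 2000 or more, but -2.32 for means below 20 (Tuba8, an alpha-tubulin gene). Among the calls were interferon-stimulated genes, myeloid genes, a few erythroid and progenitor genes, and genes of chromosome 9 around Trex1.

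**Figure D1:**
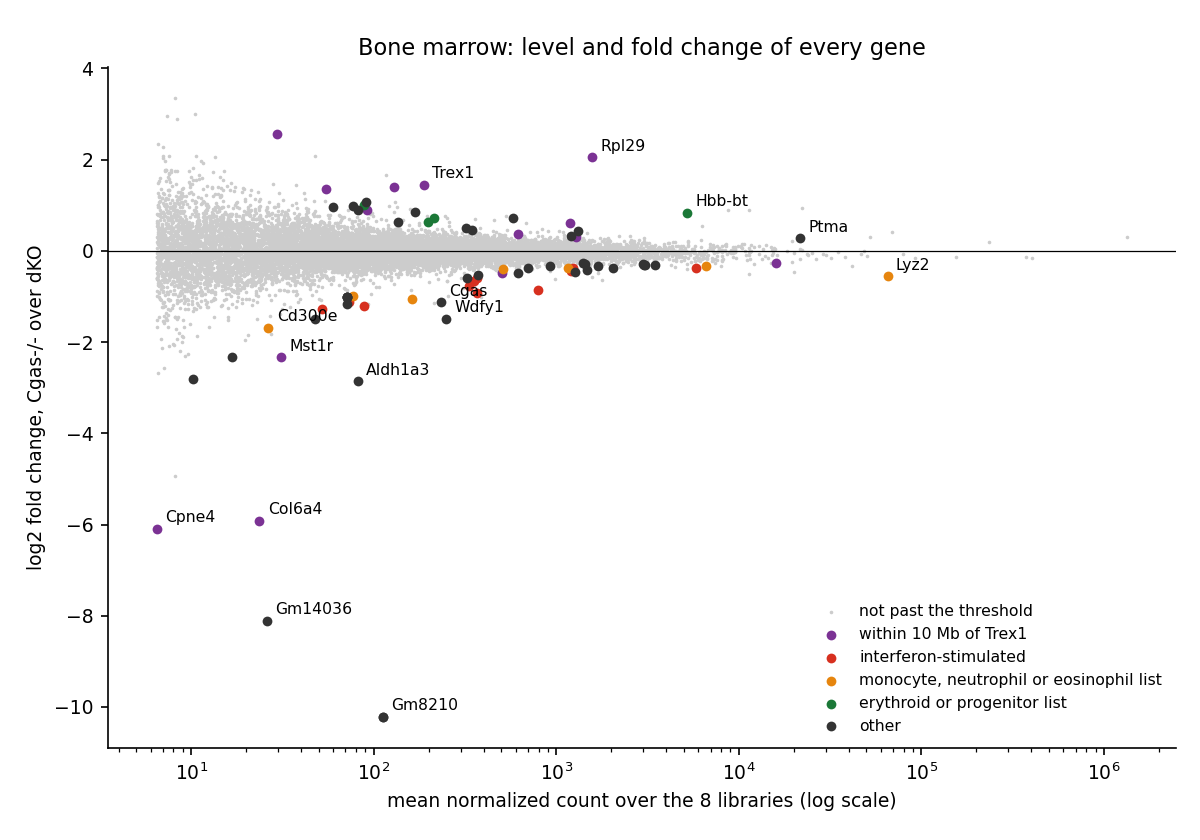
Log2 fold change of Cgas-/- over dKO marrow (vertical axis) against the mean normalized count over the 8 libraries (horizontal, log scale) for all 14423 genes. Coloured points are the 77 genes with a DESeq2 adjusted p under 0.05, where a gene within 10 Mb of Trex1 takes that colour whatever its list. Rpl29 at 2.05 stands above all other called genes with means over 1000, and the lowest points are 3 processed pseudogenes.

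Interferon-stimulated genes were lower in Cgas-/- marrow than in dKO marrow, with a median below 0 in each of the 10 families measured. Of 100 measured genes, 93 had a log2 fold change below 0, against 50.5% of all genes, and the median was -0.23. At a DESeq2 adjusted p under 0.05, 11 were lower and 1 was higher, where 0.361% and 0.173% of all genes were, and before adjustment 41 were lower and 1 higher at a p under 0.05. The 1 higher gene, Shisa5, encodes a p53- and interferon-induced protein of the endoplasmic reticulum and starts 0.0194 Mb from Trex1. Bulk RNA cannot tell fewer cells of a type from less RNA per cell, here and in every result below.

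The oligoadenylate synthetases had the lowest median of these families. These enzymes make the 2′-5′ oligoadenylates that activate RNase L when double-stranded RNA is present, and the Oasl genes encode related proteins. All 8 measured members were below 0, with a median of -0.88, and 4 of them fell. Oasl1 had 30.6 against 73.9 normalized counts in Cgas-/- against dKO marrow, 2.42 times lower (-1.27 ± 0.276, DESeq2 adjusted p = 0.0023, authors' deposited table). Oas2 had 53.5 against 123 (-1.20 ± 0.253, DESeq2 adjusted p = 0.00142, authors' deposited table). Oas1a had 45.9 against 101 (-1.13 ± 0.252, DESeq2 adjusted p = 0.0038, authors' deposited table). Oas3, the longest of these enzymes and the one with the highest mean of the 4, had 245 against 416 (-0.76 ± 0.182, DESeq2 adjusted p = 0.0115, authors' deposited table). The genes are close paralogs in one cluster on chromosome 5, Oasl1 and Oasl2 apart, so the split of reads among them is uncertain.

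Promoters of several of these genes hold the core of the interferon-stimulated response element, and these stretches are shown because the response is known to act through such letters. The sequences are from RefSeq on GRCm38.p6, 5′ to 3′ on the strand of each gene, with capitals for every match to the motif on either strand, where overlapping matches run together. The motif searched is GAAA, any 2 bases and GAAA again, which reads as TTTC, 2 bases and TTTC on the opposite strand. Oas1a (chr5:120907526-120907570, minus strand) and Oas1g (chr5:120887614-120887656, minus strand), a paralog chosen after its values were seen, share a stretch with 2 overlapping matches just before the start, and Oas3 (chr5:120777700-120777759, minus strand) holds another.
Oas1a: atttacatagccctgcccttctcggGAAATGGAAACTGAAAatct
Oas1g: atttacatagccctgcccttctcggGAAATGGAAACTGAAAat
Oas3: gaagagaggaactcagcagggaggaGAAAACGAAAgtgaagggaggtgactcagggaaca
Isg15 (chr4:156200850-156200921, minus strand) holds 3 overlapping matches, and Ifit1 (chr19:34640760-34640838, plus strand) and Ifit3 (chr19:34583348-34583441, plus strand) hold 2 separate ones each on the opposite strand.
Isg15: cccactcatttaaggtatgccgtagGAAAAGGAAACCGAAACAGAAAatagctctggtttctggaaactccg
Ifit1: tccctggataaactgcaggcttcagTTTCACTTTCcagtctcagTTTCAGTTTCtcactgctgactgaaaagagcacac
Ifit3: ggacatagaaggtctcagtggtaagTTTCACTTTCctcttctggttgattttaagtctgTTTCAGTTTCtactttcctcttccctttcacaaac

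Among the 10070 genes of the table with a RefSeq promoter of 300 bases (250 before the start and 50 after it), 404 hold the motif (4.01%). Among interferon-stimulated genes it was found in 41 of 80 promoters (51.2%), and among those of them with an unadjusted p under 0.05 on the lower side in 14 of 30 (46.7%). Of the 11 called lower, 7 have a promoter in the table and 3 of these hold the motif, namely Oas1a, Oas3 and Ifitm3. Of all 52 genes called lower, 27 have a promoter and 3 hold it (11.1%), and of the 25 called higher, 17 have one and 1 holds it (5.88%). A match is a description of the letters and not a measured binding site. The list was written from knowledge of interferon responses, so its share is a description, and the difference between 46.7% and 51.2% was not tested.

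Other effectors followed in the same direction. Rtp4, an interferon-induced receptor transporter protein with antiviral activity, had 254 against 479 (-0.92 ± 0.195, DESeq2 adjusted p = 0.00177, authors' deposited table). Its annotation shares bases with another gene on its strand. Among the 16 restriction factors and membrane effectors, 15 were below 0 with a median of -0.35, and Rtp4, Ms4a4c and Ifitm3 fell. Ifitm3, which blocks the fusion of viruses in endosomes, had the highest level of the called interferon-stimulated genes, 5053 against 6574, with a small difference (-0.38 ± 0.0915, DESeq2 adjusted p = 0.012, authors' deposited table). Mx2, a dynamin-like GTPase chosen after its values were seen, had the lowest log2 fold change of the whole list, -1.49 ± 0.413, but a mean of only 23 and no call (DESeq2 adjusted p = 0.0543, authors' deposited table). Of 9 genes for mitochondrial and apoptotic proteins, Ifi27l2a (-0.87 ± 0.231, from 561 against 1023) and Ifi27 (-0.66 ± 0.154, from 275 against 435) fell, each called by DESeq2 in the authors' deposited table. The human gene IFI27 is widely read as a marker of interferon activity in blood.

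The Schlafen genes, which restrain the growth of T cells and myeloid cells, had 6 of 7 members below 0 and a median of -0.22. Slfn4 (1024 against 1388, -0.44 ± 0.115) and Slfn1 (1072 against 1399.8, -0.38 ± 0.104) fell, each called by DESeq2 in the authors' deposited table, and they too are paralogs. Ifit genes, whose proteins bind viral RNA, had 5 of 6 members below 0 and a median of -0.47, with 0 calls and 2 lower at a p under 0.05 before adjustment. Ifit3 was at -1.16 ± 0.535 and Ifit1 at -0.75 ± 0.35 (adjusted p by DESeq2 0.482 and 0.499, authors' deposited table). Their means of 93.6 and 64.6 were near the 73.3 of Oas1a, but their standard errors were larger (authors' deposited table).

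Sensors and regulators lay on the same side with fewer calls. The 8 sensors of RNA and of Z-form nucleic acid had 7 members below 0, a median of -0.32 and 5 with an unadjusted p under 0.05, but none was called. Ddx58, which encodes the RNA sensor RIG-I, was at -0.36 ± 0.11, and Zbp1, the sensor of Z-form nucleic acid, at -0.75 ± 0.232 (DESeq2 adjusted p = 0.119 and 0.127, authors' deposited table). The 4 transcription factors of the response were all below 0, with a median of -0.20 and 0 calls. Irf7, the amplifier of type I interferon, was at -0.66 ± 0.192 (DESeq2 adjusted p = 0.079, authors' deposited table). The 5 genes of ISG15 conjugation had a median of -0.31, with Isg15 itself at -0.75 ± 0.372 (DESeq2 adjusted p = 0.539, authors' deposited table). The PYHIN family of DNA-binding proteins had 10 of 11 below 0 (median -0.23, 0 calls, 2 lower before adjustment). All 26 Parp, Trim, Sp and Phf11 genes were below 0, but by a median of only -0.16, with 0 calls and 7 lower at a p under 0.05 before adjustment.

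**Figure D2:**
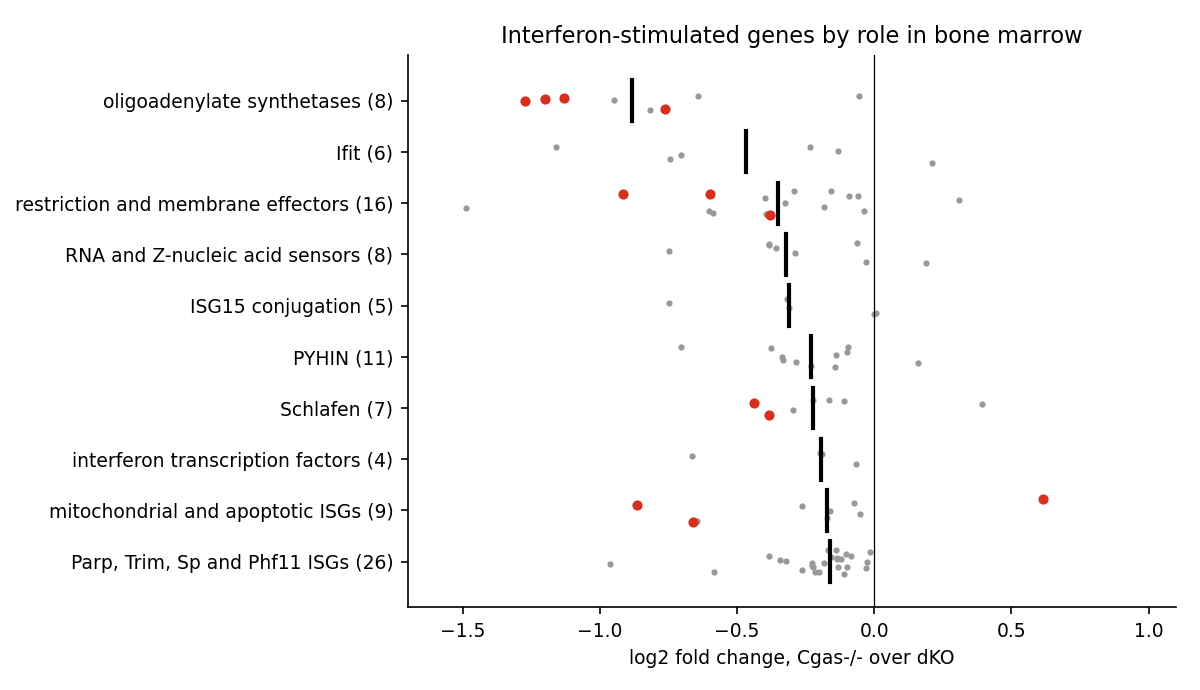
Log2 fold change of Cgas-/- over dKO marrow for the 100 measured interferon-stimulated genes, one point per gene, in rows by role with the number of genes in brackets. Black bars are medians and red points are the 12 genes with a DESeq2 adjusted p under 0.05. The oligoadenylate synthetases have the lowest median, -0.88, and the 1 red point above 0 is Shisa5.

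Related groups held 0 calls. Genes of the interferon-gamma GTPases and chemokines, a partly overlapping response, had 16 of 18 below 0 and a median of -0.28, and before adjustment 1 gene, Gbp7 (-0.27 ± 0.123 in the authors' deposited table), had a p under 0.05. MHC class I and peptide loading genes had 20 of 24 below 0 and a median of -0.08, 2 of them lower at an unadjusted p under 0.05. B2m, the light chain of class I molecules, was at -0.33 ± 0.0979 and H2-D1 at -0.15 ± 0.075 (DESeq2 adjusted p = 0.0982 and 0.523, authors' deposited table). Receptors, kinases and inhibitors of interferon signalling had 9 of 14 below 0 and a median of -0.06, with 1 lower and 2 higher at an unadjusted p under 0.05. The shares over the whole table at that p were 4.65% lower and 4.19% higher.

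Monocyte genes were lower in the same comparison. Of 33 measured genes of classical monocytes, 29 were below 0, with a median of -0.26, 4 were called lower and 15 had a p under 0.05 on the lower side before adjustment (1 on the higher side). Over all genes 0.361% were called lower and 4.65% had such a p on the lower side. Lyz2, the lysozyme of monocytes, macrophages and granulocytes, had 52774 against 77882 normalized counts (-0.56 ± 0.0892, DESeq2 adjusted p = 3.76e-07, authors' deposited table). Csf1r, the receptor for the growth factor of monocytes and macrophages, had 1013 against 1312 (-0.37 ± 0.0988, DESeq2 adjusted p = 0.0356, authors' deposited table). Ly6c2, the antigen that marks classical monocytes, fell by 0.33 on the log2 scale (5819 against 7324 normalized counts, authors' deposited table). Ms4a4c, a membrane protein of monocytes that interferon also induces, had 293 against 443 (-0.60 ± 0.15, DESeq2 adjusted p = 0.0214, authors' deposited table). The whole monocyte list ran from -0.68 to 0.40, and its members had means from 35.5 to 65328 in the authors' deposited table, so none was near 0.

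Nonclassical monocytes, which patrol vessels, had 14 of 18 genes below 0 and a median of -0.22. Their call was Cd300e, an activating receptor of monocytes, at -1.68 ± 0.46 from 12.6 against 40.3 normalized counts (DESeq2 adjusted p = 0.0479, authors' deposited table). The Ms4a and Cd300 receptor families had 15 of 16 below 0 (median -0.21, with Ms4a4c and Cd300e called), and the median was -0.05 over the members in no other list. At an unadjusted p under 0.05, 6 nonclassical monocyte genes and 4 Ms4a and Cd300 genes were lower, with 0 higher in each list. Over all genes 50.5% were below 0, 0.361% were called lower and 4.65% were lower at that p. Ms4a4c was the 1 interferon-stimulated gene that was also in the monocyte lists or the Ms4a and Cd300 list. Without it, 92 of 99 interferon-stimulated genes were below 0, with the same rounded median of -0.23 and 10 called lower. Leaving out 1 gene could hardly change that median. Whether the shift of monocyte genes had a part in the values of interferon-stimulated genes was not tested. Macrophage genes of marrow and red pulp had 10 of 20 below 0 and a median of -0.01.

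Neutrophil genes lay below 0 by small amounts. Primary granule genes of promyelocytes had 16 of 17 below 0 (median -0.07, with Lyz2 the 1 call), secondary and tertiary granule genes of later precursors 23 of 25 (median -0.16, 0 calls), and mature neutrophil genes 23 of 28 (median -0.15, 1 call). At an unadjusted p under 0.05 there were 4, 7 and 8 lower genes in these lists and 0, 0 and 2 higher ones, beside 4.65% lower and 4.19% higher over all genes. The call among mature neutrophil genes was Padi4, the enzyme that citrullinates histones when neutrophils release their chromatin, with 440.3 against 582 normalized counts (-0.40 ± 0.103, DESeq2 adjusted p = 0.0259, authors' deposited table). Among secondary granule genes the smallest p-values belonged to Mgst1 (-0.34 ± 0.0975), Itgb2l (-0.32 ± 0.102), Stfa3 (-0.64 ± 0.213) and Ly6g (-0.29 ± 0.105), none of them called by DESeq2 in the authors' deposited table. Ly6g encodes the surface antigen by which mouse neutrophils are sorted.

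Eosinophil genes had 9 of 10 below 0 with a median of -0.40, and 2 of them were called lower. In the table as a whole 50.5% of genes were below 0 and 0.361% were called lower. At an unadjusted p under 0.05, 3 of the 10 were lower and 0 higher, against 4.65% lower over all genes. All 3 were Ear genes, and no other measured eosinophil gene reached that p. Ear1 had 106 against 219.8 (-1.05 ± 0.24, DESeq2 adjusted p = 0.00519, authors' deposited table), and Ear6 had 51.5 against 102 (-0.98 ± 0.234, DESeq2 adjusted p = 0.0115, authors' deposited table). Both encode eosinophil-associated ribonucleases of a family of near-identical copies on chromosome 14, some of them expressed in monocytes too, so the split of reads among them is uncertain. Basophil and mast cell genes did not share the direction, with 3 of 12 below 0 and a median of 0.11.

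Other genes called lower belonged to none of the fixed lists. Csf2rb, the shared beta chain of the receptors for GM-CSF, IL-3 and IL-5, had 1260.1 against 1687 (-0.42 ± 0.0875, DESeq2 adjusted p = 0.00115, authors' deposited table). Itgb2, the beta 2 integrin of leukocytes, was at -0.32 ± 0.0802, and Fcer1g, the signalling chain of Fc receptors, at -0.31 ± 0.0759, each called by DESeq2 in the authors' deposited table. Myo1f, a myosin of immune cells, fell by 0.38, and Cotl1, an actin-binding protein, by 0.29 (log2, authors' deposited table). Trib1, a pseudokinase that controls C/EBP-alpha and the output of granulocytes and macrophages, was at -0.39 ± 0.0979 (DESeq2 adjusted p = 0.0237, authors' deposited table). Gyg, the glycogenin that primes glycogen, was at -0.53 ± 0.107, and Pfkfb4, a regulator of glycolysis on chromosome 9 near Trex1, at -0.49 ± 0.106 (DESeq2 adjusted p = 0.000601 and 0.00193, authors' deposited table). Neat1, the long non-coding RNA of paraspeckles, was at -0.31 ± 0.0685 and Oga, which removes O-GlcNAc from proteins, at -0.27 ± 0.0711 in the authors' deposited table. Plp2, Mrgpra2b, Rell1, Ctsh, Rab3d and the transcribed locus Ly6a2 were also called lower, between -0.59 and -0.29.

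Erythroid genes were higher in Cgas-/- marrow. Of 81 measured, 63 were above 0, with a median of 0.20, 2 were called higher, and before adjustment 19 were higher and 3 lower at a p under 0.05. Over all genes 0.173% were called higher, and 4.19% were higher and 4.65% lower at that p. All 4 globin genes were above 0 with a median of 0.89. Hbb-bt, an adult beta-globin, had 6694 against 3745 normalized counts (0.84 ± 0.223, DESeq2 adjusted p = 0.037, authors' deposited table). The others, whose values are given because the copies share reads, were Hbb-bs at 0.89 ± 0.271, Hba-a1 at 0.89 ± 0.303 and Hba-a2 at 0.93 ± 0.278 (adjusted p by DESeq2 0.108, 0.204 and 0.0982, authors' deposited table). Tmem56, a membrane protein listed with late erythroblast genes, was the other call at 1.002 ± 0.242 (118 against 58.9 normalized counts, DESeq2 adjusted p = 0.012, authors' deposited table).

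The other erythroid roles also had medians above 0. Heme synthesis and iron genes had 13 of 17 above 0 (median 0.15), red cell membrane and skeleton genes 18 of 22 (median 0.23), erythroid transcription factors and the Epo receptor 10 of 14 (median 0.20), and late enzymes and clearance genes 19 of 25 (median 0.15). Alas2, the first enzyme of heme synthesis in erythroid cells, was at 0.68 ± 0.232 (DESeq2 adjusted p = 0.205, authors' deposited table). Tfrc, the transferrin receptor, was at 0.25 ± 0.0924 and Fech, the last enzyme of heme synthesis, at 0.31 ± 0.128, whereas Snx3, a sorting protein for that receptor, was at -0.27 ± 0.0836, none of them called (authors' deposited table). At a p under 0.05 before adjustment 3 of these 17 genes were higher and 2 lower. The letters AGATAA, a core read by GATA factors (either strand), occur in 16 of 59 erythroid promoters (27.1%), 8.21% of all promoters and 15% of those of interferon-stimulated genes. The interferon motif occurs in 2 of 59 erythroid promoters (3.39%).

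**Figure D3:**
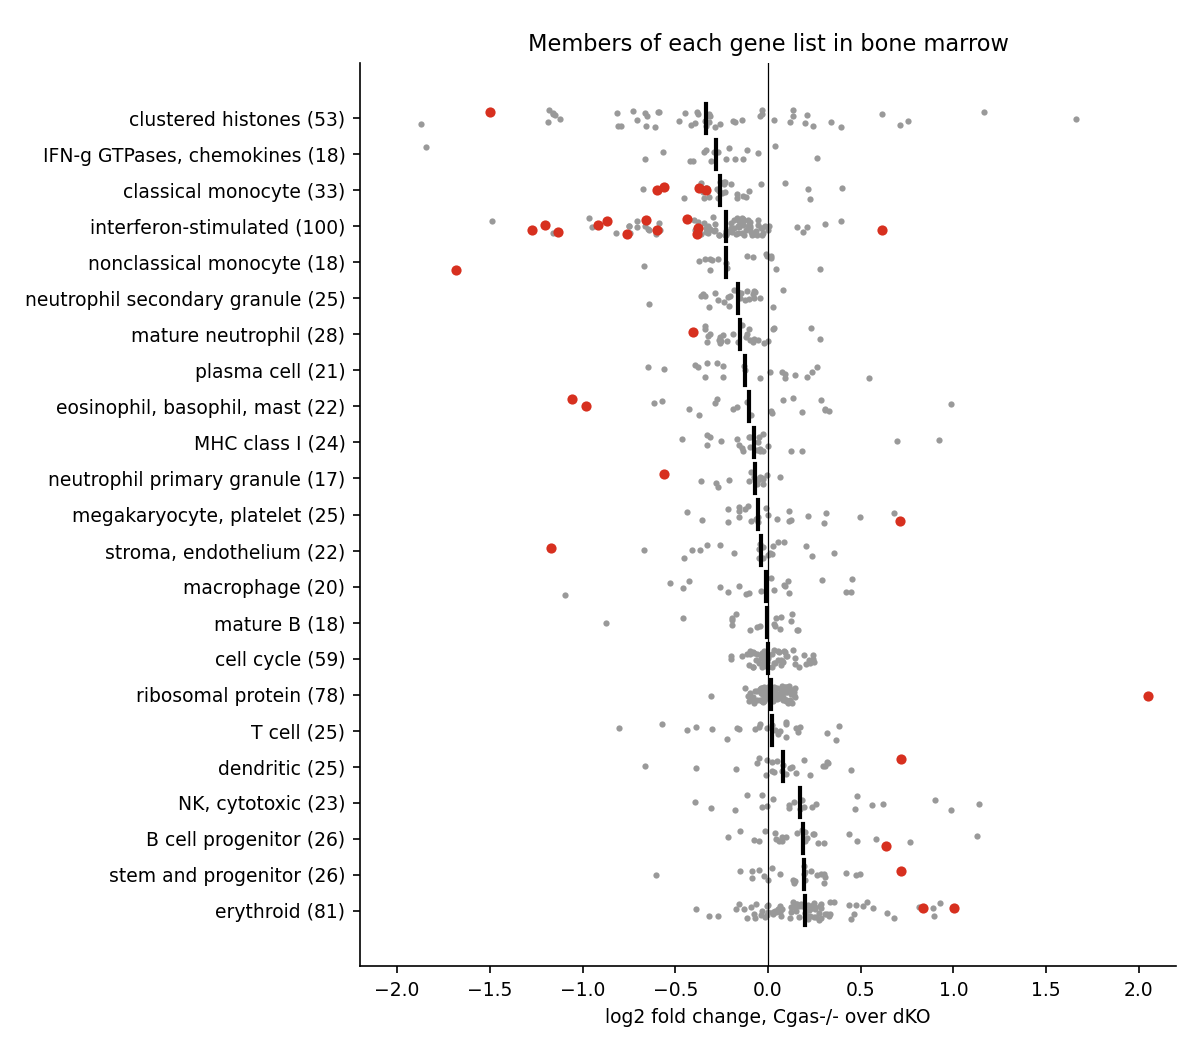
Log2 fold change of Cgas-/- over dKO marrow for the measured members of 23 gene lists, one point per gene, with the number of genes in brackets and rows ordered by median (black bar). Red points have a DESeq2 adjusted p under 0.05. Erythroid genes have the highest median, 0.20, and the interferon-stimulated row holds 12 of the red points.

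Early progenitor and B cell precursor genes lay on the same side as erythroid genes. Stem and progenitor genes had 19 of 26 above 0, a median of 0.19 and 5 higher at an unadjusted p under 0.05. Flt3, the cytokine receptor of multipotent and lymphoid progenitors and of dendritic cells, was called, with 266 against 162 normalized counts (0.72 ± 0.153, DESeq2 adjusted p = 0.00177, authors' deposited table). B cell progenitor genes had 21 of 26 above 0, a median of 0.19 and 6 higher at an unadjusted p under 0.05. Over all genes 4.19% were higher at that p, and 0.173% were called higher. Their call was Dntt, the template-independent polymerase of V(D)J joining, with 239.9 against 154 normalized counts (0.64 ± 0.166, DESeq2 adjusted p = 0.0311, authors' deposited table). Later lymphoid lists held 0 calls, with medians of -0.01 for mature B cells, -0.12 for plasma cells and 0.02 for T cells, and before adjustment 2, 1 and 2 of their genes were lower and 0 higher at a p under 0.05. NK and cytotoxic genes had 16 of 23 above 0 (median 0.17, 0 calls, 1 higher before adjustment), and the median was -0.11 over the members with means of at least 100.

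Dendritic cell genes had 18 of 25 above 0 and a median of 0.08, with Flt3 the 1 call. At an unadjusted p under 0.05, 5 of them were higher and 1 lower, beside 4.19% higher and 4.65% lower over all genes. Megakaryocyte and platelet genes were centred near 0 (14 of 25 below, median -0.05), yet Thbs1, which encodes the matricellular protein thrombospondin 1 of platelets and myeloid cells, rose (719.7 against 439.6 normalized counts, 0.71 ± 0.134, DESeq2 adjusted p = 0.000115, authors' deposited table). Stroma, bone and endothelial genes had a median of -0.04, and Mgp, the matrix Gla protein that limits calcification, fell (44.1 against 99.5, -1.17 ± 0.312, DESeq2 adjusted p = 0.037, authors' deposited table).

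Other genes called higher were of mixed function. Ctnnd1, the p120 catenin that stabilises cadherins, was at 0.86 ± 0.177 (217 against 119 normalized counts, DESeq2 adjusted p = 0.000846, authors' deposited table). Txnrd3, a thioredoxin and glutathione reductase, was at 0.95 ± 0.253 (DESeq2 adjusted p = 0.0356, authors' deposited table). Kdm1a, the histone demethylase LSD1 with roles in blood cell differentiation, was at 0.46 ± 0.121 and Ptma, the abundant nuclear protein prothymosin alpha, at 0.28 ± 0.0742, each called by DESeq2 in the authors' deposited table. Tnpo3, Trmt1l, Ascc2, mt-Tq, a transfer RNA gene of mitochondria, and the transcripts Gm26917 and Gm44775 were also called higher, between 0.33 and 1.06. Trmt1l had the adjusted p nearest to the threshold.

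Calls were more frequent near Trex1 than elsewhere. Chromosome 9, which holds both Trex1 (chr9:109057933-109059734 on GRCm38, minus strand) and Cgas (chr9:78430526-78443237, minus strand), had 17 calls among 819 genes (2.08%, against 0.534% over the table), 9 higher and 8 lower. Within 2 Mb of Trex1, Trex1 itself included, 5 of 96 genes were called (5.21%), from 2 to 5 Mb 8 of 42 (19.0%), from 5 to 10 Mb 1 of 54 (1.85%), from 10 to 20 Mb 1 of 106 (0.943%) and farther away 2 of 521 (0.384%). Around Cgas, 1 of 94 genes within 10 Mb was called (1.06%), and that gene was Cgas itself. Outside both 10 Mb windows 62 of 14137 genes were called (0.439%), 16 higher and 46 lower. Thus 9 of the 25 higher calls lay within 10 Mb of Trex1, counting the deleted gene itself, against 5 of the 52 lower ones. These genes and Trex1 lie on one stretch of chromosome 9, so effects of the loss of TREX1 and of linked sequence cannot be told apart for these genes.

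The 14 calls within 10 Mb of Trex1, Trex1 included, went in both directions and ranged from -6.09 to 2.55. Rpl29, a protein of the large ribosomal subunit 2.63 Mb from Trex1 (chr9:106429454-106431568), rose 4.14-fold, with 2525 against 609.8 normalized counts (2.05 ± 0.0874, DESeq2 adjusted p = 1.25e-117, authors' deposited table). Dusp7, a phosphatase of ERK kinases 2.69 Mb away (chr9:106368632-106375724), had 187 against 71 (1.40 ± 0.211, DESeq2 adjusted p = 4.41e-08, authors' deposited table). D030055H07Rik, an antisense transcript over Glyctk (chr9:106148687-106160201), had 50.5 against 8.6 (2.55 ± 0.436, DESeq2 adjusted p = 5.47e-06, authors' deposited table), and without a stated counting strand its reads cannot be told from those of Glyctk. Bfsp2, a lens filament gene (1.35 ± 0.33), Shisa5 (0.61 ± 0.0841), Lrrfip2 (0.36 ± 0.0983) and Ppm1m (0.31 ± 0.0837) were also called higher in the authors' deposited table.

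On the lower side, Col6a4, a collagen VI chain 3.07 Mb from Trex1, had 0.773 against 46.6 normalized counts and Cpne4, a copine, had 0.187 against 12.8, both close to 0 in Cgas-/- marrow by the authors' deposited table. Their fitted changes of -5.91 ± 0.915 and -6.09 ± 1.23 rest on almost no reads in one genotype, so the fold is poorly fixed (authors' deposited table). The 95% intervals from these standard errors ran from -7.71 to -4.12 and from -8.51 to -3.67. Cpne4 had a mean of 6.47, next to the smallest mean of the table, 6.46, and nearly all of it came from dKO marrow. Mst1r, the RON receptor of macrophage-stimulating protein, had 10.3 against 51.8 (-2.34 ± 0.472, DESeq2 adjusted p = 0.000672, authors' deposited table). Gnai2, an abundant inhibitory G protein subunit of leukocytes, was at -0.26 ± 0.0673 with 14572 against 17428 (DESeq2 adjusted p = 0.0311, authors' deposited table). Tma7, which starts 0.0166 Mb from Trex1, was not called in marrow (-0.19 ± 0.083, DESeq2 adjusted p = 0.438, authors' deposited table), although it lies next to Trex1.

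**Figure D4:**
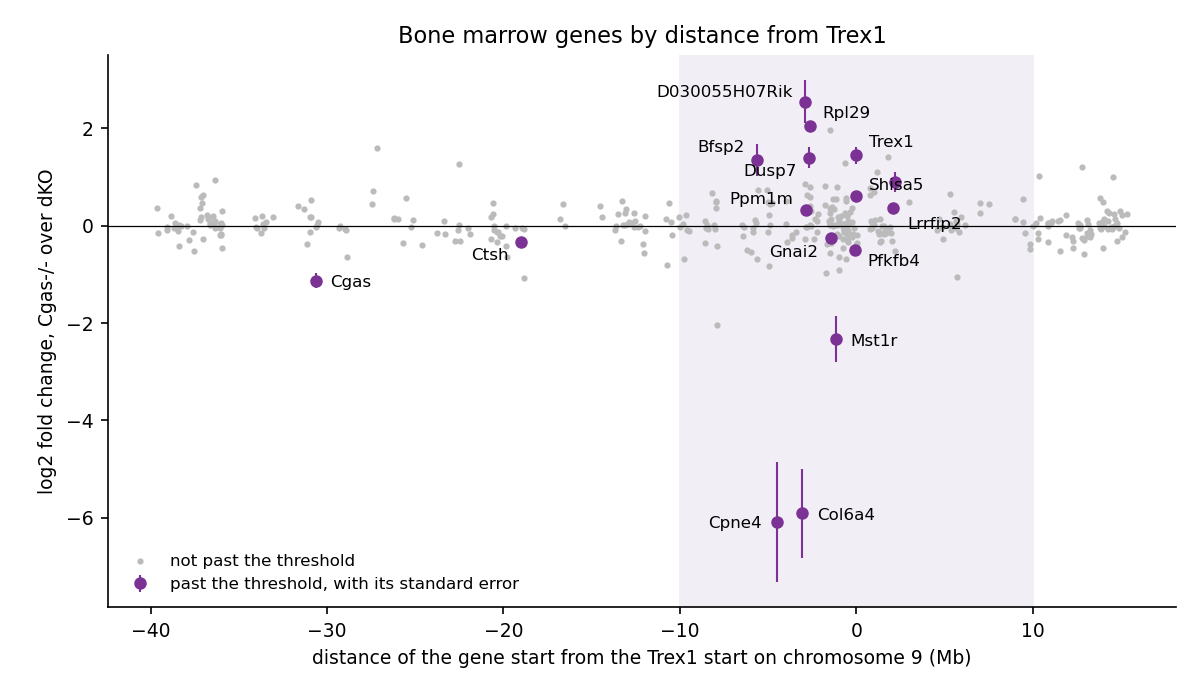
Log2 fold change of Cgas-/- over dKO marrow against the distance of each gene start from the start of Trex1 on chromosome 9, in Mb, within 40 Mb. Purple points with standard errors have a DESeq2 adjusted p under 0.05, and the shaded band is 10 Mb to each side. The band holds 14 calls with values from -6.09 to 2.55, and Cgas stands alone near -30.6 Mb.

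Rpl29 had partners elsewhere in the genome. The processed pseudogenes Gm8210 on chromosome 1 and Gm13841 on chromosome 5, which share all deposited values, and Gm14036 on chromosome 2 had the lowest fitted log2 fold changes of the table, -10.21 ± 1.04 for the first pair and -8.11 ± 1.12 for the third (authors' deposited table). Their levels were near 0 in Cgas-/- marrow and 112 and 26.1 as means over all libraries in the authors' deposited table. By alignment, their annotated transcripts matched Rpl29 at 99.379%, 99.379% and 99.375% identity over 483, 483 and 480 bases, with 3 mismatches each. Reads of these genes therefore cannot be fully told apart. The 78 measured ribosomal protein genes had a median of 0.02, and Rpl29 was their 1 call.

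Away from chromosome 9, Aldh1a3 and Wdfy1 had the smallest adjusted p-values of the called protein-coding genes. Aldh1a3, which makes retinoic acid from retinaldehyde (chr7:66390890-66427517), fell 7.25-fold, with 19.9 against 144 normalized counts (-2.86 ± 0.267, DESeq2 adjusted p = 5.95e-23, authors' deposited table). Wdfy1, an endosomal adaptor of Toll-like receptors 3 and 4 (chr1:79702262-79776143), had 132 against 368 (-1.48 ± 0.145, DESeq2 adjusted p = 5.05e-21, authors' deposited table). Both had standard errors well under their change, and Tuba8 (-2.32 ± 0.592) and the non-coding Gm807 (-2.81 ± 0.72), also called lower in the authors' deposited table, had means of only 16.8 and 10.3.

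The marrow calls were then read in spleen, where donor marrow of the same genotypes had been given to dKO recipients and the comparison shares no library with marrow. Of the 77 calls, 69 were listed in spleen, 47 with the same sign, and 12 were called there. Outside the windows around Trex1 and Cgas, 54 were listed, 32 with the same sign, and 3 were called in spleen, namely Aldh1a3, Wdfy1 and Rell1. Interferon-stimulated genes had a median of 0.09 in spleen against -0.23 in marrow over the same 100 genes, erythroid genes -0.33 against 0.20, and classical monocyte genes 0.02 against -0.26. A test of the difference between tissues for single genes, with the 2 log2 fold changes subtracted and their standard errors combined as independent, called 8 of 13852 genes (0.0578%) at an adjusted p under 0.05.

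Among interferon-stimulated genes this test called Rtp4 alone, at -0.92 ± 0.195 in marrow and 0.29 ± 0.175 in spleen (authors' deposited tables, adjusted p of the difference = 0.00799, normal test). By the authors' deposited tables, Oas2 was at -1.20 ± 0.253 in marrow and 0.17 ± 0.3 in spleen, and Oasl1 at -1.27 ± 0.276 and 0.06 ± 0.259. Their differences did not pass (adjusted p = 0.306 and 0.3, normal test). Hbb-bt was at 0.84 ± 0.223 and -0.57 ± 0.3 (adjusted p of the difference = 0.144, normal test on the authors' deposited tables). Wdfy1 had the same sign in both, at -1.48 ± 0.145 and -1.10 ± 0.12 in the authors' deposited tables, and the difference did not pass (adjusted p = 0.985, normal test).

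**Figure D5:**
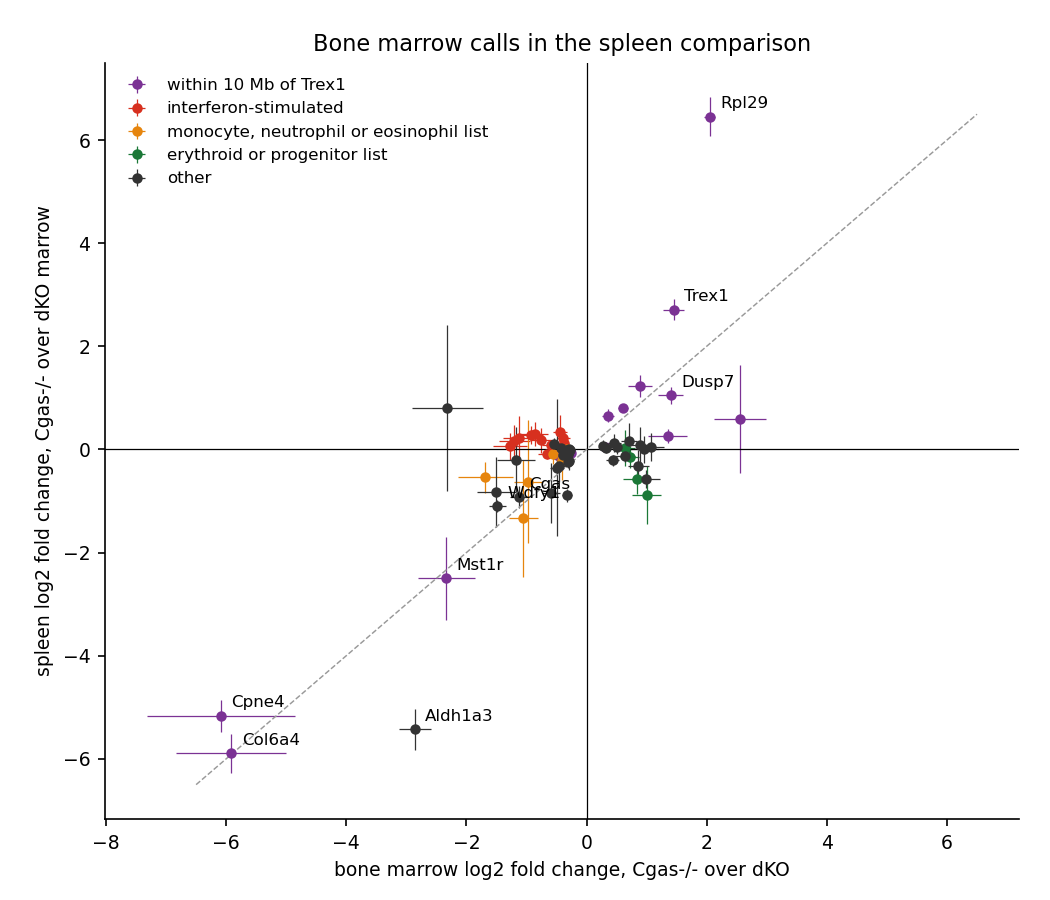
Log2 fold change in spleen (Cgas-/- over dKO donor marrow, vertical axis) against that in bone marrow (horizontal) for the 69 marrow calls listed in both tables, with standard errors and the line of equal change dashed. Red points, the interferon-stimulated genes other than Shisa5 (purple, higher in both), are all below 0 in marrow and lie between -0.09 and 0.33 in spleen, while the purple points near Trex1 have the same sign in both.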

How the data were processed

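Cell suspensions of bone marrow (8) and spleen (10) gave RNA by the SPLIT kit and then QuantSeq 3′ FWD libraries, per the labels' protocols. Per the submitters' processing notes, the authors used STAR 2.6.1, bcl2fastq 1.8.4, Partek and DESeq2 with the build mm10. The counting tool, strand, annotation, gene filter and the version of the authors' test were not given in the sources used here. Per the file headers, the authors deposited a DESeq2 table per tissue with a mean normalized count (a signal), a log2 fold change with its standard error, a Wald score, a p-value and an adjusted p-value. The Wald score, p-value and Benjamini-Hochberg adjustment were recomputed from the deposited log2 fold changes as a check. A threshold of 0.05 was used on the adjusted p-values as deposited.

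The lists and all choices were made with earlier results of these data known. The lists come from general knowledge, and the text names called genes, the 4 members with the smallest p in roles without a call, and, chosen after their values were seen, Oas1g, Mx2, Atrip, Tma7, AY036118, Xist, the marker genes of the opening and the globins not called. A gene that the rule names may be left unreported here, though it is in the counts. Symbols were matched to GENCODE M21 on GRCm38 (14281 directly, 56 by synonym, 86 unmatched), and 19 calls overlap another gene on the same strand. Promoters are from RefSeq. The tissue test was two-sided. The Benjamini-Hochberg calls and the tissue test were tried on data simulated with normal noise from the deposited standard errors. The other steps were not tried on simulated data. Python 3.11.15, pandas 2.3.3, numpy 2.4.6, scipy 1.17.1, matplotlib 3.10.9 and blastn 2.17.0 were used.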

Additional observations from a re-analysis of the deposited data

Results flagged for a closer look

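For 8 genes the log2 fold change in spleen differed from that in bone marrow by a test of the difference itself (normal test on the authors' deposited log2 fold changes and standard errors, adjusted over 13852 genes). The values below are the spleen minus the marrow log2 fold change, for 7 of them. Rpl29 differed by 4.40 and Trex1 by 1.26, both higher in each tissue and more so in spleen. Tma7, next to Trex1, differed by 2.52 (-0.19 ± 0.083 in marrow and 2.33 ± 0.191 in spleen, authors' deposited tables), and Rassf1, also on chromosome 9, by 1.19 (-0.56 ± 0.219 and 0.63 ± 0.108, authors' deposited tables). Aldh1a3 differed by -2.56, lower in both tissues and more so in spleen. The interferon-stimulated gene Rtp4 differed by 1.20, and Fos, an immediate early gene, by 1.20 (-0.11 ± 0.175 in marrow and 1.09 ± 0.158 in spleen, authors' deposited tables).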

How the results depend on the processing

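The 77 marrow calls became 32 at an adjusted p under 0.01 (10 higher, 22 lower), 124 under 0.1 (48 higher), and 14 when tested against a log2 fold change of 0.25 (5 higher, 9 lower). With the 10 Mb windows around Trex1 and Cgas left out, 13 higher calls were left, the tissue difference kept 4 calls, and Shisa5 left the interferon-stimulated list, which then had 0 higher. Lower calls in that list were 5 under 0.01 and 0 against 0.25, in the monocyte list 1 and 0, and higher erythroid calls 0 and 0, with 1 when adjusted over genes with a mean of at least 100. The motif share of 51.2% became 32.5% with the longer motif that ends in GAAAC (1.13% of all promoters). Of the 77 genes, 63 lost their call against 0.25, 6 without the genes near Trex1 or Cgas (Ascc2, Cd300e, Ptma, Rab3d, Slfn1, Trmt1l), 3 on centring and 2 when genes with shared values counted once. Of the 35 list medians, 8 changed sign under an alternative. They were those of 4 immunoglobulin variable segments (-0.46, and 0.12 with means of at least 20), NK genes (0.17, and -0.11 with means of at least 100) and 6 within 0.07 of 0 (cell cycle, macrophage, mature B, megakaryocyte, MHC class II, T cell). The alternatives for interferon-stimulated genes, without genes near Trex1 and without monocyte genes, were chosen after seeing the data. No paired analysis was possible because the tables hold no values per library, and for the same reason no library could be left out and the depth of each is unknown. Means below 20 had a median standard error of 0.614, and 3 of these 2378 genes were called, with a smallest absolute log2 fold change of 2.32. Differences well above 0.614 could therefore go uncalled there.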

Other observations

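Clustered histone genes, whose mature mRNAs mostly lack a poly(A) tail and so enter poly(A)-primed libraries only in part, had 39 of 53 members below 0 and a median log2 fold change of -0.34, with 10 lower and 3 higher at an unadjusted p under 0.05. The 1 call was Hist1h4m, an H4 gene with near-identical copies, at -1.50 ± 0.325 from 25 against 70.8 normalized counts in Cgas-/- and dKO marrow (DESeq2 adjusted p = 0.00224, authors' deposited table). Replication genes, which are expressed in the same phase of the cell cycle, had a median of 0.05 with 19 of 30 above 0, and mitosis genes -0.02. At an unadjusted p under 0.05, 5 replication genes were higher and 0 lower, and 1 mitosis gene was higher and 1 lower. Over all genes 50.5% were below 0, 0.361% were called lower, and 4.65% were lower and 4.19% higher at that p. The histone genes had a median standard error of 0.36, against 0.19 over all genes. Of the 53, 40 had means of at least 20, with a median of -0.30. The U2 small nuclear RNA genes Rnu2-10, Gm23971, Gm23849 and Gm24950 shared all deposited values and count as 1 measurement, -1.01 ± 0.249 (DESeq2 adjusted p = 0.0164, authors' deposited table).

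Chaperone genes had 4 of 12 members lower and 0 higher at an unadjusted p under 0.05, with a median of -0.10 and 0 calls. In the table as a whole 4.65% of genes were lower and 4.19% higher at that p. Hspa8, the constitutive HSP70, was at -0.24 ± 0.0689 (DESeq2 adjusted p = 0.079, authors' deposited table). Targets of NF-kB and inflammatory cytokines had 14 of 21 below 0 (median -0.10, 1 lower at a p under 0.05 before adjustment, close to the share over all genes). Targets of p53 had 13 of 18 above 0 (median 0.09, 1 higher at that p, also close to it). Immediate early genes had 14 of 22 above 0 (median 0.07, 3 higher and 1 lower at that p). Genes of the unfolded protein response had a median of -0.09, cholesterol synthesis -0.07, MHC class II 0.07 and 15 mitochondrially encoded mRNA and ribosomal RNA genes 0.08. These 7 lists held 0 calls by DESeq2 in the authors' deposited table. The mitochondrial transfer RNA gene mt-Tq, called higher above, was in none of them.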
